A study of Mus musculus with 12 samples.

Results

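The hearts described here are 6 of the 12 in the study: those of mice that had sham surgery, an operation without an infarct, and were collected at ZT23 (3 mice, the wake sham group) or at ZT11 (3 mice, the sleep sham group). Zeitgeber time (ZT) is counted in hours after the lights go on, so ZT11 is late in the light phase, when mice mostly sleep, and ZT23 is late in the dark phase, when they are mostly awake. The members were chosen by their labels alone. Messenger RNA was measured on 1 single-colour Affymetrix mouse array per heart. All mice were C57Bl/6, an inbred laboratory strain, and no allele or drug is named for any group. The wake sham mice had been operated on between ZT13 and ZT15 and the sleep sham mice between ZT1 and ZT3, and both groups were killed 8 hours after surgery. The study's other 6 hearts had a myocardial infarction (MI), in which the left anterior descending artery had been closed with a ligature. These operations were done at the same times of day, on 3 mice at each time. The 6 hearts serve for comparison. They also enter the choice and level filter of probe sets and the estimate of spread behind the sham p-values. Surgery and collection moved together by the same span, and every mouse had been operated on, so the time of day of the operation, the time of day of collection and any response to the operation that depends on time cannot be told apart. The age and sex of the mice and the part of the sham heart that was taken are not stated in the labels. The question addressed is what separates the operated but non-infarcted heart at the end of the night from the same heart at the end of the day.

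Heart muscle cells keep time with a feedback loop. Bmal1 (the gene Arntl) and Clock or Npas2 form a dimer that binds E-boxes and switches on the Per, Cry and Rev-erb (Nr1d1, Nr1d2) genes and the PAR bZIP factors Dbp, Tef and Hlf. Per and Cry proteins then inhibit the dimer, and Rev-erb proteins silence Arntl, Nfil3, Cry1 and Npas2 through ROR elements, so both arms of the loop run out of step with each other. In night-active rodents the adrenal hormone corticosterone rises toward the end of the day and also after stress or surgery, and its receptor switches on a set of genes, among them Fkbp5, Zbtb16, Per1 and the metallothioneins, in most tissues. In the heart the clock is known to time genes of fuel use, of repolarising currents and of the sarcomere.

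Promoter sequences are shown for 6 genes that moved between the sham groups and carry a match to a clock motif close to their start. Whether clock proteins act at these matches was not tested. They come from RefSeq (build GRCm38.p6), read in the direction of the gene, and the capitals mark the motif. The first 4 hold an E-box (CACGTG, its own reverse complement): Per1 (chr11:69098726-69098845, plus strand), Tef (chr15:81802489-81802608, plus strand), Tspan4 (chr7:141476260-141476379, plus strand) and Slc25a33 (chr4:149774268-149774387, minus strand). The Per3 window (chr4:151044784-151044903, minus strand) holds 2 D-boxes (TTATGTAA), the site of Dbp, Tef, Hlf and the repressor Nfil3. The Nfil3 window (chr13:52981040-52981159, minus strand) holds a ROR element (TAGGTCA) on the opposite strand, so that it reads TGACCTA.
Per1: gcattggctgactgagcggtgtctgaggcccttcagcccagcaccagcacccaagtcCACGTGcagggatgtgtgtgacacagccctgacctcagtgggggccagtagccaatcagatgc
Tef: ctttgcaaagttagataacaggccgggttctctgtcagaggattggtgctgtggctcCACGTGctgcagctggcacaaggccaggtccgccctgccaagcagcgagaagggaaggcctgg
Tspan4: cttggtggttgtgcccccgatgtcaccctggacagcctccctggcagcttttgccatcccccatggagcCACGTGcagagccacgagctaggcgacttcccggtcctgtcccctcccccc
Slc25a33: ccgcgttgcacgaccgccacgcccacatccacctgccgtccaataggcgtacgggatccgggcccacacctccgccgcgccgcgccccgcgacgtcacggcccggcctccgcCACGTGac
Per3: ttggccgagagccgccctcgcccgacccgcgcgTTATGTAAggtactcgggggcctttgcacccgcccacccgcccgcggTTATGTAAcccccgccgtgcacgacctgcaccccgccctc
Nfil3: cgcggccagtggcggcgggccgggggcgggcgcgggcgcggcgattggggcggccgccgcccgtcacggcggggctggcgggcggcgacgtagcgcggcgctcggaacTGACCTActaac
These windows of 120 bases were chosen because they hold a match. The E-box lies 166 bases before the start of Per1, 127 before that of Tef, 51 before that of Tspan4 and 8 before that of Slc25a33. The D-boxes of Per3 begin 205 and 158 bases before its start, and the ROR element of Nfil3 begins 12 bases before its start. Arntl, Dbp, Nr1d1 and Nr1d2 have entries but held no match to these 3 motifs in the 250 bases before their starts, and Per2, Bhlhe40, Tcap and Wee1 are named only.

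Over the 250 bases before the start, on both strands, an E-box was present in 14 of the 69 genes lower at ZT23 that had an entry (20.3%), in 4 of the 27 higher (14.8%), in 682 of 6587 tested genes (10.4%) and in 1854 of 27025 genes of the promoter table (6.86%). A D-box (TTATGTAA) was present in 2 of the 69 lower genes (2.9%) and 33 tested genes (0.501%), and a ROR element in 2 lower genes, 1 higher gene (3.7%) and 132 tested genes (2.0%). The metal response element (TGCACNC or TGCGCNC) was in 36.2% of lower, 40.7% of higher and 34.9% of tested genes, and in 5 of the 6 called members of the Per and Rev-erb arm that had an entry. The palindromic glucocorticoid element was in 1 tested gene and in 0 of the called ones. A match is a description of letters and not of binding.

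The arrays had been brought to 1 scale before deposit, with a trimmed mean signal of 150.1 on each. Median signals were 33.7 to 34.7 at ZT23 and 33.1 to 33.9 at ZT11. Over 8101 tested genes the log2 values of 2 sham arrays correlated at 0.978 to 0.988 within a group (6 pairs) and at 0.964 to 0.984 between groups (9 pairs). Heart muscle identity held in all 6: 34 of the 35 sarcomere genes with a usable probe set were tested, and the cardiac myosin heavy chain Myh6 read 10467, 9599 and 9492 at ZT23 and 12039, 8743 and 11823 at ZT11. The 3' to 5' signal ratio of the beta-actin control, a sign of RNA length, was 1.77 to 1.81 at ZT23 and 1.94 to 2.49 at ZT11, without overlap, and the mean log2 signal of the hybridisation controls was 9.37 to 9.44 against 9.6 to 9.73. The part of either in the results was not tested beyond a fit that adds the beta-actin ratio as a term. That fit called 10 genes higher and 31 lower.

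A total of 123 of the 8101 genes (1.52%) differed between the sham groups at an adjusted p below 0.05 (limma, two-sided, Benjamini-Hochberg). At ZT23, 34 genes were higher (0.42%) and 89 lower (1.1%), and 54 of the 123 differed at least 2-fold, 10 of them upward and 44 downward. The 3 arrays of one group lay wholly above the 3 of the other for 20.1% of all tested genes (11.9% higher and 8.15% lower at ZT23) and for 122 of the 123, the exception being Cited4. The median log2 difference over all genes was 0.017 and the median size of a difference 0.134. The counts rest heavily on single arrays. Leaving out 1 sham array at a time gave between 30 genes, without wake sham 1, and 226, without sleep sham 3. The other 4 omissions gave 173 without wake sham 2, 42 without wake sham 3, 51 without sleep sham 1 and 35 without sleep sham 2.

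**Figure D1:**
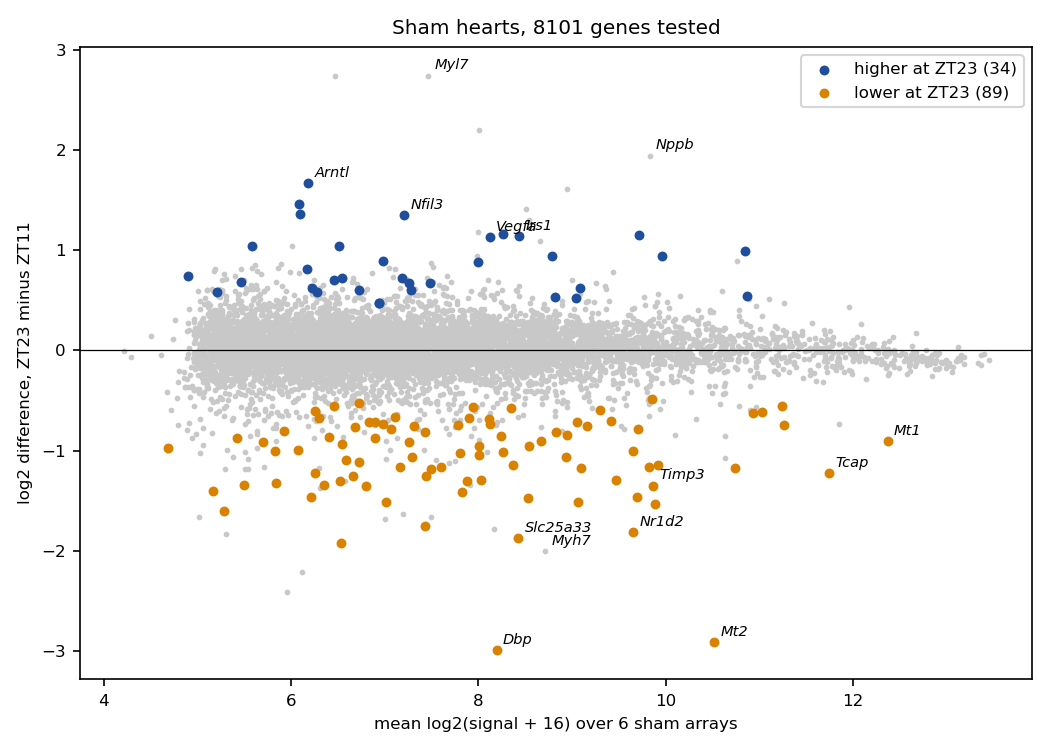
Each point is 1 of 8101 genes, with its mean log2(signal + 16) over the 6 sham arrays on the horizontal axis and its log2 difference, ZT23 minus ZT11, on the vertical axis. The 34 genes called higher are blue and the 89 called lower orange, with Dbp and Mt2 lowest, and the grey points Myl7, Nppb and Myh7 differ widely without a call.

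The activating arm of the clock stood high at ZT23. Arntl, the Bmal1 gene, gave signals of 113, 133 and 98.0 at ZT23 and 26.4, 18.6 and 30.6 at ZT11. The lowest night array was more than 3 times the highest day array, and the difference was 1.67 ± 0.21 (log2, SE), or 3.18-fold (adjusted p = 0.0012, limma). Nfil3, the repressor that competes with Dbp for D-boxes, gave 226, 206 and 229 at ZT23 and 86.9, 93.2 and 54.2 at ZT11. Its groups did not overlap either, and it rose by 1.35 ± 0.15 (adjusted p = 0.000434, limma).

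The 2 were the called members among 6 tested in the list of the Bmal1 arm, beside 0.42% of all genes, and the list's median difference was 0.58. Clock, the partner of Bmal1, read 163, 165 and 133 at ZT23 and 97.3, 123 and 83.0 at ZT11. Every night value lay above every day value, but the difference of 0.54 ± 0.14 had an adjusted p of 0.0728 (limma). Cry1, a late-acting repressor silenced by Rev-erb, read 86.9, 79.6 and 66.0 at ZT23 and 41.6, 62.7 and 40.8 at ZT11, also without overlap (log2 0.55 ± 0.14, adjusted p = 0.0771, limma). Npas2, the alternative partner of Bmal1, read 22.98, 41.5 and 22.4 at ZT23 and 9.09, 16.8 and 12.9 at ZT11. It too was separate between groups without passing the test (log2 0.62 ± 0.21, adjusted p = 0.199, limma). Rora, an activator at ROR elements, differed by -0.04 ± 0.18 with overlapping groups.

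The repressing arm and the PAR bZIP factors ran the other way: 8 of 10 tested members were lower at ZT23, beside 1.1% of all genes, 0 were higher, and the list's median was -1.05. Dbp, the PAR bZIP activator whose RNA follows Bmal1 activity most directly, had the largest fall of any called gene. Its signals were 105, 59.5 and 107 at ZT23 and 814, 682 and 963 at ZT11. The lowest day array was more than 6 times the highest night array, and the difference was -2.99 ± 0.28, or 7.96-fold (adjusted p = 9.24e-05, limma). Tef, a close relative, gave 279, 227 and 249.9 at ZT23 and 493, 447 and 569 at ZT11, a smaller separation of -0.95 ± 0.13 (adjusted p = 0.003, limma). Hlf, the other relative, gave 61.6, 42.7 and 53.1 at ZT23 and 93.2, 92.7 and 88.7 at ZT11. Its groups did not overlap, its brightest probe set did not pass (log2 -0.66 ± 0.19, adjusted p = 0.126, limma), and another of its probe sets did, at -0.90 ± 0.19 (adjusted p = 0.037, limma over single probe sets).

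Nr1d2, the Rev-erb beta receptor that silences Arntl, gave 364, 549 and 354 at ZT23 and 1423, 1633 and 1434 at ZT11. Every night array was well below every day array, and the difference was -1.81 ± 0.18 (adjusted p = 0.000148, limma). Nr1d1, Rev-erb alpha, gave 17.9, 3.59 and 18.4 at ZT23 and 43.4, 44.9 and 86.8 at ZT11. It is dim on this array, with wake sham 2 near the floor, and it passed with -1.34 ± 0.27 (adjusted p = 0.027, limma). The call was lost in each of the 6 fits with 1 sham array left out.

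The 3 Period genes, whose proteins inhibit the Bmal1 dimer, were all lower at ZT23. Per3 gave 35.0, 22.9 and 29.3 at ZT23 and 112, 91.1 and 122 at ZT11, the largest of their differences at -1.46 ± 0.24 (adjusted p = 0.00718, limma). Per1, which corticosterone also induces, gave 84.0, 122 and 76.9 at ZT23 and 203, 247 and 187 at ZT11, with wake sham 2 the highest of its group. Per2 gave 45.2, 51.1 and 45.4 at ZT23 and 91.3, 122 and 85.3 at ZT11, the smallest of the 3 differences. Their adjusted p-values were 0.003 for Per1 and 0.0125 for Per2 (limma). Bhlhe40 (Dec1), an E-box repressor, gave 158, 112 and 156 at ZT23 and 342, 305 and 268 at ZT11 and fell by 1.03 (adjusted p = 0.036, limma), while its relative Bhlhe41 lay below the level filter. Cry2 gave 51.0, 70.0 and 44.4 at ZT23 and 75.6, 90.6 and 62.9 at ZT11, with overlapping groups and no call (adjusted p = 0.35, limma). With 1 array left out the list kept 5 to 7 called members.

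**Figure D2:**
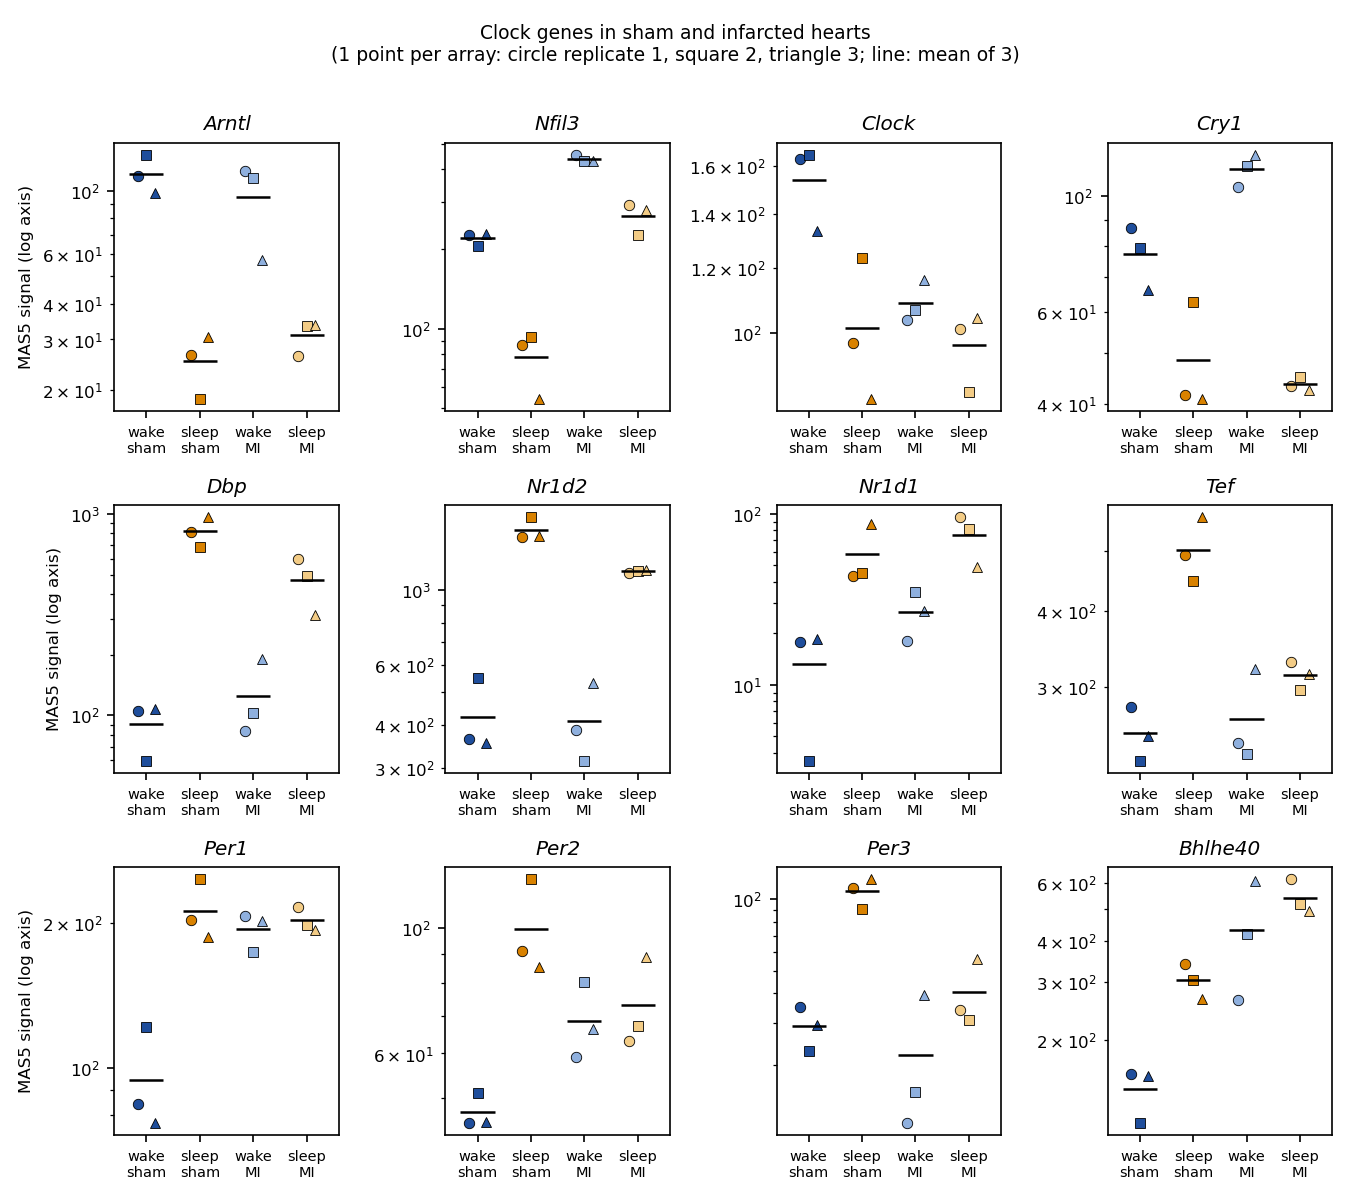
MAS5 signal (log axis) of 12 clock genes in the 12 hearts, 1 point per array and a line at the mean of 3, for wake sham, sleep sham, wake MI and sleep MI hearts. Among sham hearts Arntl, Nfil3, Clock and Cry1 are higher at ZT23 and the other 8 are higher at ZT11, with no overlap in any of the 12.

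Among 28 tested genes listed as outputs of the clock, 6 were lower at ZT23, beside 1.1% of all genes, and 0 higher, and the median was -0.39. Tspan4, a tetraspanin membrane protein, gave 129.8, 108 and 134 at ZT23 and 418, 396 and 270.0 at ZT11, without overlap and with a difference of -1.41 ± 0.15 (adjusted p = 0.000275, limma). Pfkfb3, which makes the activator of phosphofructokinase, gave 22.2, 15.8 and 22.7 at ZT23 and 72.5, 125 and 43.3 at ZT11. All night values were below all day values, of which sleep sham 3 was the lowest, and it fell by 1.32 (adjusted p = 0.0176, limma). Herpud1, of the endoplasmic reticulum stress response, passed narrowly at -1.17 ± 0.27 (adjusted p = 0.0487, limma). Wee1, a clock-driven kinase that restrains entry into mitosis, gave 68.5, 71.9 and 78.0 at ZT23 and 146, 112 and 133 at ZT11. The day arrays were all above the night arrays, by -0.71 ± 0.15 (adjusted p = 0.0303, limma), although a second Wee1 probe set differed by -0.06. Klf9, a factor under both clock and glucocorticoid control, and Snrk, a kinase related to AMPK, fell by 0.61 and 0.59.

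Several outputs well known from hearts did not pass. Klf15, a regulator of cardiac metabolism and of potassium channel expression, read 143, 373 and 168 at ZT23 and 337, 396 and 351 at ZT11. Wake sham 2 overlapped the day group and the adjusted p was 0.233 (limma). Kcnip2, the channel subunit of the transient outward current, read 89.1, 75.0 and 89.8 at ZT23 and 61.9, 57.3 and 89.4 at ZT11 and overlapped as well (log2 0.25 ± 0.25). The triglyceride synthase Dgat2 and Nampt, the NAD salvage enzyme, differed by -0.03 ± 0.10 and -0.01 ± 0.12. Usp2, a deubiquitinase, read 783, 795 and 569.9 at ZT23 and 1115, 1068 and 1183 at ZT11, with no overlap and an adjusted p of 0.0763 (limma). Another of its probe sets passed, at -0.75 ± 0.11 (adjusted p = 0.00506, limma over single probe sets). With 1 array left out, 1 to 8 outputs were called lower. Without wake sham 1, without wake sham 3 and without sleep sham 2 it was 1 each, without sleep sham 1 it was 2, and without wake sham 2 it was 8. With the beta-actin covariate it was 1.

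Cirbp, the RNA-binding protein induced by cooling, read 56.4, 99.5 and 83.4 at ZT23 and 120.3, 215 and 194 at ZT11, lower at night in each heart but not called (log2 -0.996 ± 0.27, adjusted p = 0.0877, limma). The median of the 33 body temperature and heat shock genes tested was 0.00, and 1 was called higher, beside 0.42% of all genes. The called gene was Hspa4l, a relative of the Hsp110 chaperones, with 223, 204 and 203 at ZT23 and 121, 137 and 119.6 at ZT11 (log2 0.67 ± 0.15, adjusted p = 0.036, limma). Its call was lost in each of the 6 fits with 1 sham array left out. The heat-inducible chaperone Hspa1b averaged 70.7 ± 39.4 and 43.8 ± 12.1 in wake and sleep sham hearts (SD, n = 3), against 1855 ± 1346 at ZT23 and 2932 ± 666 at ZT11 in infarcted hearts.

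Glucocorticoid-responsive genes were the list with the most calls. Of 40 tested, 15 were lower at ZT23, beside 1.1% of all genes, and 0 higher, with a median of -0.71, and 37 of the 40 differences were negative. Mt2, a metallothionein that binds zinc and is induced by glucocorticoids, metals and cytokines, gave 441, 814 and 386 at ZT23 and 5275, 5863 and 2069 at ZT11. The lowest day array, sleep sham 3, was still more than 2 times the highest night array, wake sham 2, and the fall was 7.52-fold (log2 -2.91 ± 0.32, adjusted p = 0.000384, limma). Mt1, the related gene next to it, gave 3723, 4808 and 3176 at ZT23 and 8455, 6971 and 6413 at ZT11. The 2 groups were again separate, by -0.91 ± 0.15 (adjusted p = 0.00802, limma).

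Fkbp5, the chaperone that damps the glucocorticoid receptor and a standard marker of its activity, gave 184, 362 and 128 at ZT23 and 528, 856 and 480.0 at ZT11. Wake sham 2 came near the day group without reaching it, and the difference was -1.48 ± 0.31 (adjusted p = 0.029, limma). Zbtb16 (Plzf), another strongly induced target, gave 152, 229 and 124 at ZT23 and 283, 494 and 313 at ZT11 and passed with -1.04 ± 0.22 (adjusted p = 0.0279, limma). Map3k6, a stress kinase, gave 38.4, 100.9 and 55.3 at ZT23 and 204, 243 and 168 at ZT11. All day values exceeded all night values, by -1.51 ± 0.22 (adjusted p = 0.00385, limma).

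The transcription factors Cebpd and Cebpb, which act in the acute phase response, fell together. Cebpd gave 197, 472 and 287 at ZT23 and 1115, 1185 and 525 at ZT11, and sleep sham 3 stood close to wake sham 2. Cebpb gave 463, 919 and 607 at ZT23 and 1346, 1863 and 1157 at ZT11. The differences were -1.51 ± 0.29 and -1.14 ± 0.20 (adjusted p = 0.0206 and 0.0125, limma). Another Cebpd probe set differed by -0.19 ± 0.18, without a call. Foxo3, a factor that drives atrophy and stress resistance genes, gave 176, 313 and 157 at ZT23 and 499.9, 466 and 460.1 at ZT11 and fell by 1.15 (adjusted p = 0.00699, limma). Sesn1, a sestrin that restrains mTORC1, gave 476, 792 and 452 at ZT23 and 1084, 1129 and 1160.5 at ZT11, with day arrays nearly level and all above the night arrays (log2 -0.999 ± 0.19). Zfp36, which destabilises cytokine messages, and Bcl2l1, which encodes Bcl-xL, differed by -1.31 ± 0.24 and -1.17 ± 0.20. The sulfotransferase Sult1a1, the transglutaminase Tgm2, Klf9 and Per1 complete the 15.

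Targets that did not pass include Tsc22d3 (Gilz), which gave 602, 1084 and 789 at ZT23 and 1630.2, 1544 and 1202 at ZT11. Its groups did not overlap, and its adjusted p was 0.0598 (limma) at a difference of -0.84 ± 0.20. Sgk1, the glucocorticoid-induced kinase, read 558, 677 and 634 at ZT23 and 977, 1133 and 586 at ZT11, with sleep sham 3 inside the night range. The atrophy ligase Fbxo32 (log2 -1.13 ± 0.33), the mTORC1 inhibitor Ddit4 (-0.78 ± 0.35) and the phosphatase Dusp1 (-0.53 ± 0.23) overlapped between the groups.

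The hearts also differed within each group in the glucocorticoid-responsive genes. For 15 of the 15 called members wake sham 2 was the highest of the 3 night arrays. For 10 of the 15 sleep sham 3 was the lowest of the 3 day arrays. Among all 89 genes called lower, which include these 15, wake sham 2 was the highest night array for 60 and sleep sham 3 the lowest day array for 61. The place of sleep sham 3 was thus not particular to this list. The order of the arrays over all tested genes was not counted. The number called was 3 without wake sham 1, 19 without wake sham 2, 5 without wake sham 3, 9 without sleep sham 1, 5 without sleep sham 2 and 20 without sleep sham 3. It was 8 with only the 6 sham arrays in the fit and 4 with the beta-actin covariate. The list's median stayed between -0.91 and -0.59 in these fits. Corticosterone itself was not measured, and the sham operation preceded both collections.

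**Figure D3:**
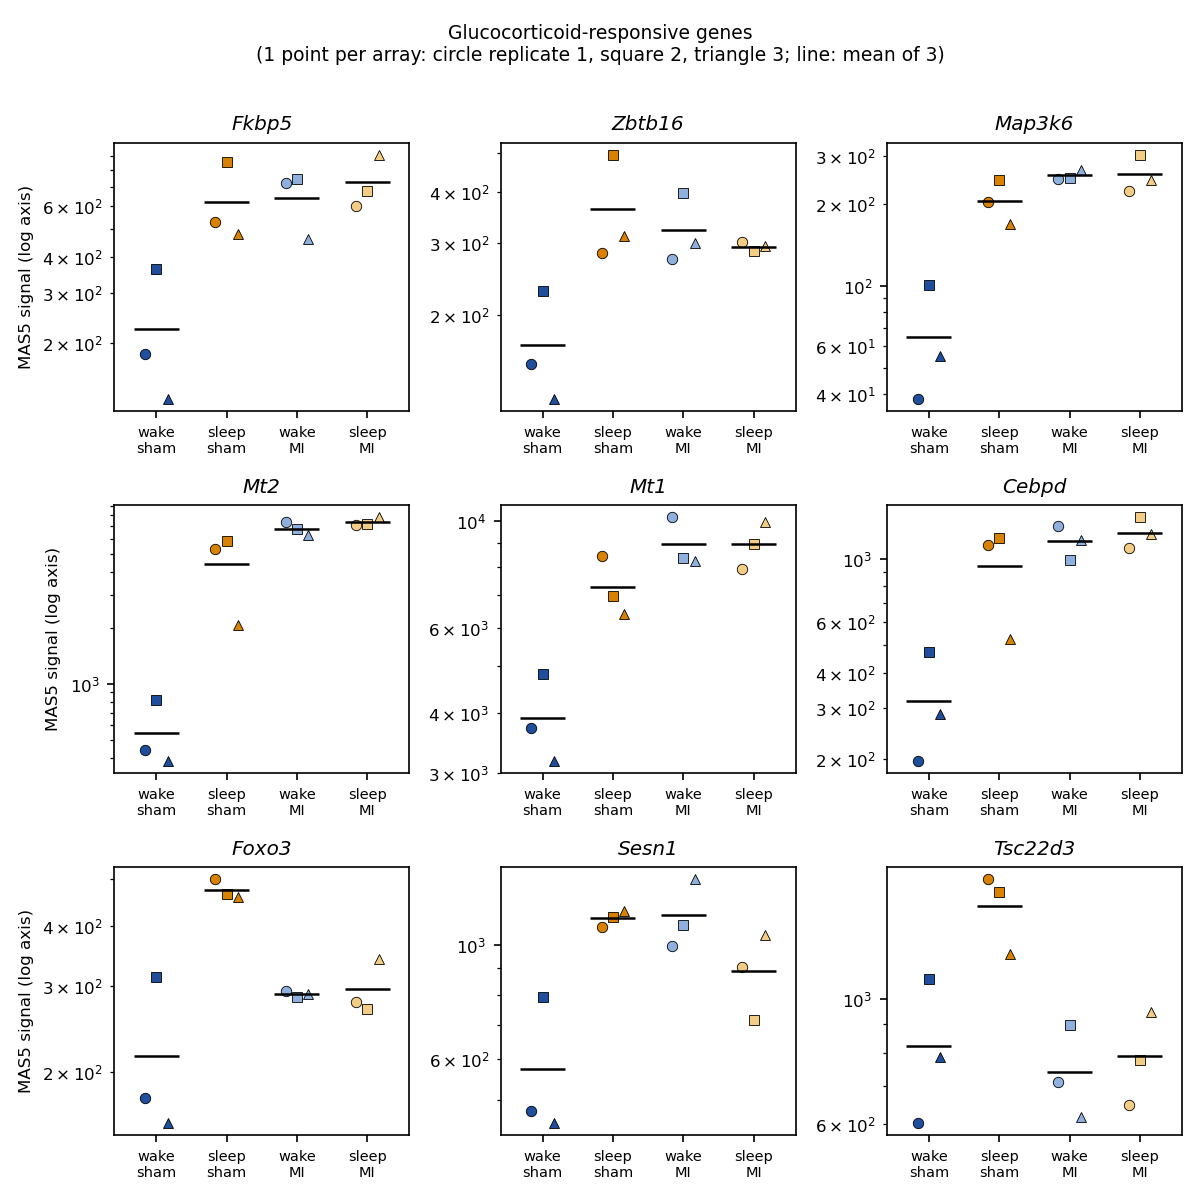
MAS5 signal (log axis) of 9 glucocorticoid-responsive genes in the 12 hearts, 1 point per array and a line at the mean of 3. The 9 were picked by hand, and Tsc22d3 was not called. In sham hearts all 9 are lower at ZT23 with no overlap, with wake sham 2 (square) the highest night value. The wake and sleep MI groups overlap in these 9. They do not overlap in Cebpb, a called member not shown, which read 1280, 1431 and 1314 in wake MI and 1524, 1595 and 1512 in sleep MI hearts.

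Immediate early genes respond within minutes to stimulation. Of 28 tested, 3 were lower (median -0.42) and 0 higher, beside 1.1% and 0.42% of all genes. Maff, a small Maf factor, gave 33.4, 52.5 and 42.6 at ZT23 and 139.6, 171 and 87.2 at ZT11, a clear separation of -1.31 ± 0.20 (adjusted p = 0.00506, limma). Btg2, an antiproliferative factor, gave 104, 107 and 108 at ZT23 and 219, 232 and 134 at ZT11. The night values lay within a few units of each other and below every day value (log2 -0.75 ± 0.15, adjusted p = 0.0224, limma). Zfp36 was the other. Egr1 read 77.3, 44.3 and 86.1 at ZT23 and 159.7, 846 and 96.6 at ZT11, so its difference of -1.63 ± 0.61 came largely from sleep sham 2 and did not pass. Fos and Junb were highest in the same heart, with 39.2, 46.5 and 55.1 at ZT23 and 87.3, 143 and 34.3 at ZT11 for Fos.

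Of 28 cytokine and chemokine genes tested, 2 were lower at ZT23, beside 1.1% of all genes. Both were receptors, and the list's median was -0.57. The groups were separate for 11 of the 28, of which 9 were lower and 2 higher at ZT23, beside 8.15% and 11.9% of all genes. An unadjusted p below 0.05 (limma) was found for 16, beside 13.4% of all genes. Il4ra, the interleukin-4 receptor chain, gave 33.4, 33.7 and 39.2 at ZT23 and 132, 171 and 64.7 at ZT11 (log2 -1.35 ± 0.22, adjusted p = 0.00815, limma). Osmr, the oncostatin M receptor, gave 121, 195 and 143 at ZT23 and 515, 520.4 and 224 at ZT11 (log2 -1.30 ± 0.25, adjusted p = 0.021, limma). The sleep sham 3 array was the lowest of the day group for both. Another probe set of Il4ra differed by -0.004 ± 0.23 and another of Osmr by -0.34 ± 0.19, neither with a call.

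Several other genes of that list separated sleep sham 1 and 2 from the other 4 hearts rather than day from night. The cytokine Il6 read 0.395, 2.53 and 3.75 at ZT23 and 71.0, 97.8 and 3.19 at ZT11, and Cxcl1, a neutrophil attractant, read 34.9, 34.0 and 30.7 at ZT23 and 187, 266 and 20.0 at ZT11. Cxcl5 read 4.40, 4.94 and 5.70 at ZT23 and 116, 125 and 6.39 at ZT11. Socs3, the feedback inhibitor downstream of interleukin-6, read 42.0, 46.0 and 86.3 at ZT23 and 296, 440.0 and 68.8 at ZT11. In all 4, sleep sham 1 and 2 were high and sleep sham 3 lay within or close to the range of the night hearts, and none passed the test (adjusted p of 0.112 for Cxcl5 to 0.254 for Cxcl1, limma). Across the 28 genes sleep sham 3 was the lowest day array for 22, as it was for 61 of the 89 genes called lower. Without it 10 of the 28 were called lower, beside 174 of all 8101 genes. Leaving out the array seen to be lowest favours such calls.

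Neutrophil markers were also highest in sleep sham 1 and 2 by their sum. All 10 tested of 18 listed had a negative difference, with a median of -0.76, and 0 passed (limma, 4 at an unadjusted p below 0.05). The summed signal of all 16 markers on the array, tested or not, was 322, 841 and 441 at ZT23 and 1440.3, 2217 and 577 at ZT11. By this sum wake sham 2 was above sleep sham 3. Wake sham 2 was the highest night array for 7 of the 10 tested markers, against 5 of the 28 cytokine and chemokine genes. S100a8 read 48.1, 221 and 103 at ZT23 and 275, 331 and 124 at ZT11. The part of these cells in the cytokine and stress gene differences was not tested. In bulk tissue fewer cells of a type and less RNA per cell cannot be told apart.

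Markers of other cell types had few calls, and several lists had many members with a small unadjusted p. Of all genes 0.42% were called higher and 1.1% lower. At an unadjusted p below 0.05 (limma) stood 15 of 32 endothelial, 12 of 30 monocyte and macrophage and 3 of 4 platelet genes, beside 13.4% of all genes. The groups were separate for 11 of the endothelial and 10 of the macrophage genes, beside 20.1% of all genes. Of the 11 endothelial genes 8 were higher and 3 lower at ZT23. Of the 10 macrophage genes 3 were higher and 7 lower. Over all genes 11.9% were separate and higher, and 8.15% separate and lower. The part of these cells in the results was not tested. Of 39 fibroblast and collagen genes 0 passed (median 0.22), and of 16 smooth muscle and pericyte genes 0 (limma, 5 and 1 at an unadjusted p below 0.05). Of 30 monocyte and macrophage genes, Adgre1, a surface antigen of macrophages, rose (141, 132 and 206 at ZT23 and 76.1, 67.5 and 89.2 at ZT11, log2 0.89 ± 0.18, adjusted p = 0.0219, limma). Lyve1, carried by resident macrophages and lymphatic endothelium, fell (298, 384 and 376 at ZT23 and 672, 824 and 482 at ZT11, log2 -0.85 ± 0.18, adjusted p = 0.0342, limma). Of 32 endothelial genes the water channel Aqp1 and the vascular regulator Rasip1 fell, by 0.74 and 0.55. Ppbp, a platelet chemokine, was lower at 18.4, 22.1 and 67.3 at ZT23 and 304, 131 and 109 at ZT11 (log2 -1.92 ± 0.41, adjusted p = 0.0347, limma), whereas Pf4, another platelet granule gene, differed by -0.22 ± 0.20. Lymphocyte and lung markers were almost all below the level filter, with 1 tested each.

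Few genes of fuel use passed the test. None of 36 fatty acid uptake and oxidation genes passed (unadjusted limma p below 0.05 in 1 of them), and the median difference was 0.00. None of 60 oxidative phosphorylation genes, 18 citrate cycle genes or 38 triglyceride, cholesterol and lipid droplet genes passed either (1, 2 and 7 at an unadjusted p below 0.05). The oxidative phosphorylation median of -0.06 became 0.03 after quantile normalization and 0.02 without sleep sham 3. Ppara, the nuclear receptor that drives fatty acid oxidation, read 94.4, 94.3 and 99.6 at ZT23 and 122, 68.5 and 118 at ZT11 (log2 -0.05 ± 0.19). Ucp3, an uncoupling protein that follows fatty acid supply, read 101.5, 79.9 and 110.1 at ZT23 and 115, 201 and 169.8 at ZT11. Its night values were all below its day values, with no call (log2 -0.63 ± 0.34, adjusted p = 0.442, limma).

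Pdk4, the kinase that shuts glucose carbon out of the mitochondria, did not pass. It read 2405, 3618 and 2632 at ZT23 and 3706, 5453 and 5265 at ZT11. All 3 night values were below all 3 day values, and the difference of -0.74 ± 0.18 had an adjusted p of 0.0618 (limma). The ketone body enzyme Bdh1 read 565, 617 and 549 at ZT23 and 257, 189.7 and 362 at ZT11, a difference of 1.10 ± 0.35 that did not pass (adjusted p = 0.164, limma). In the list of 38 glucose, glycolysis and glycogen genes Pfkfb3 was the 1 called (1.1% of all genes were called lower), and the list median was 0.07. Outside the lists, and chosen after their values were seen, the glucose transporter Slc2a3 fell (-1.004 ± 0.21) and the carbohydrate-response factor Mlxipl rose (0.68 ± 0.16), with adjusted p of 0.0274 and 0.0473 (limma).

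Among 33 insulin, PI3K and mTOR genes 1 rose and 3 fell, beside 0.42% and 1.1% of all genes. An unadjusted p below 0.05 (limma) was found for 11, beside 13.4% of all genes. Irs1, the insulin receptor substrate, gave 431, 659 and 433 at ZT23 and 238, 196 and 219 at ZT11. Every night array lay far above every day array, and the gene rose by 1.14 ± 0.16 (adjusted p = 0.00352, limma). Foxo3, Sesn1 and Trib1, a pseudokinase, were the 3 that fell. Irs2, a related substrate, had the opposite sign and no call, at 18.9, 15.3 and 16.8 at ZT23 and 30.8, 47.7 and 32.8 at ZT11 (log2 -0.67 ± 0.19, adjusted p = 0.107, limma). Ppargc1b, a coactivator of mitochondrial genes, read 473, 257 and 309 at ZT23 and 182, 142 and 181 at ZT11, separate between groups but just short of the threshold (log2 0.94 ± 0.22, adjusted p = 0.0521, limma). Ppargc1a differed by -0.04 ± 0.17.

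Of 19 hypoxia genes, 1 rose (Vegfa) and 2 fell (Pfkfb3 and Ndrg1), beside 0.42% and 1.1% of all genes. Vegfa, the vascular growth factor, gave 491, 374 and 336 at ZT23 and 212, 166 and 144 at ZT11, with no overlap and a difference of 1.13 ± 0.19 (adjusted p = 0.01, limma). Another of its probe sets differed by 0.71 ± 0.18 (adjusted p = 0.0767, limma over single probe sets). Ldha and Pgk1, which hypoxia induces in most cells, differed by 0.08 ± 0.10 and 0.11 ± 0.11.

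None of 39 ribosome and translation genes passed (limma, 7 at an unadjusted p below 0.05), although all 39 differences were negative (median -0.12, against 3751 negative differences among all 8101 genes). The median was -0.08 after quantile normalization and -0.14 after median centring. None of 33 protein breakdown and autophagy genes passed (4 at an unadjusted p below 0.05). Of 37 antioxidant and detoxification genes only the metallothioneins Mt1 and Mt2 did, beside 1.1% of all genes called lower.

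Tcap was the 1 called gene of the contractile apparatus. Of 34 sarcomere and Z-disc genes tested, it was lower at ZT23 and 0 were higher, beside 1.1% and 0.42% of all genes, and the median was -0.07. The groups were separate for 6 of the 34, beside 20.1% of all genes. An unadjusted p below 0.05 (limma) was found for 5, beside 13.4% of all genes. Tcap, telethonin, ties titin to the Z-disc and is a known target of the heart clock. It gave 2301, 2117 and 2261 at ZT23 and 5412, 4713 and 5547 at ZT11. The lowest day array was about 2 times the highest night array, and the difference of -1.22 ± 0.09 (2.33-fold) had the smallest adjusted p of the whole comparison, 1.03e-05 (limma). Titin itself (Ttn) read 5317, 5038 and 4374 at ZT23 and 5598, 5246 and 5774 at ZT11, and the Z-disc actinin Actn2 differed by -0.02 ± 0.10. Cardiac actin (Actc1) and Myh6 differed by -0.08 ± 0.13 and -0.13 ± 0.12. None of the 31 calcium handling and ion channel genes passed (6 at an unadjusted p below 0.05). Atp2a2, the calcium pump SERCA2, differed by -0.15 ± 0.13. Gja1, connexin 43, read 2683, 2657 and 2511 at ZT23 and 2028, 1531 and 1961 at ZT11, separate between groups without a call (adjusted p = 0.152, limma).

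Several muscle genes differed widely between single hearts. Myh7, the slow myosin heavy chain, read 139.6, 295 and 174 at ZT23 and 377, 542 and 2675 at ZT11. The night values were all below the day values, but sleep sham 3 stood far above the other 5 hearts, and the difference of -2.00 ± 0.51 did not pass (adjusted p = 0.0728, limma). Over the omissions of 1 sham array it was -2.55 to -1.16, and Myh7 passed without sleep sham 3, without sleep sham 1 and with array weights. The ventricular stress peptide Nppb read 3420.0, 759 and 2118 at ZT23 and 288, 167 and 1778 at ZT11, spread over both groups, and skeletal actin (Acta1) read 3551, 1307 and 2760.1 at ZT23 and 639, 806 and 3778 at ZT11.

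Markers of atrial muscle were highest in 1 night heart. Myl7, the atrial light chain, read 79.3, 268 and 3476 at ZT23 and 26.3, 11.5 and 256 at ZT11, and sarcolipin (Sln), which inhibits the calcium pump in the atrium, read 27.6, 119.8 and 1995 at ZT23 and 3.87, 1.04 and 103 at ZT11. In wake sham 3 both were at least 10 times any other sham heart. Of 13 atrial markers listed, 11 were on the array and 8 were tested. The summed signal of the 11 was 2115, 2604 and 15523 at ZT23 and 2384, 2092 and 5222 at ZT11. Wake sham 3 and sleep sham 3 thus carried the most. Neither Myl7 (adjusted p = 0.252, limma) nor Sln (0.262) passed. Tcap kept its call with any 1 sham array left out, with a difference of -1.29 to -1.18 over the 6 omissions.

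**Figure D4:**
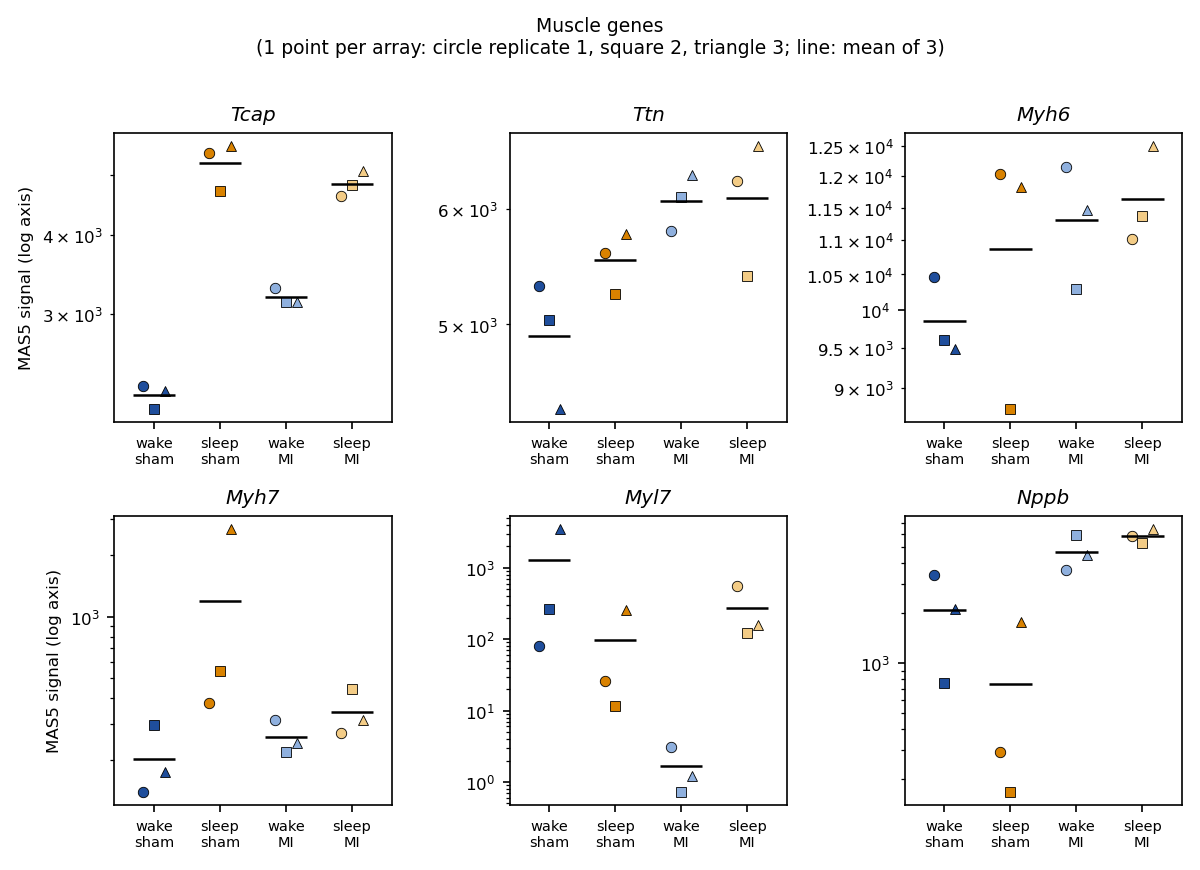
MAS5 signal (log axis) of 6 muscle genes in the 12 hearts, 1 point per array and a line at the mean of 3. In sham hearts Tcap separates by time of day, Ttn and Myh6 overlap, Myh7 is highest in sleep sham 3 and Myl7 in wake sham 3, and Nppb overlaps.

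Of the 123 genes, 47 belonged to at least 1 of the 38 lists counted and 76 to none. Some called genes have other probe sets above the level filter, and not all of those passed. For Cebpd, Fkbp5, Il4ra, Klf9, Mt1, Ndrg1, Osmr, Sesn1, Snrk, Hspa4l, Tm4sf1, Vegfa and Wee1, 1 or more had the same sign and no call. Those of Il4ra (-0.004), Wee1 (-0.06) and Cebpd (-0.19) were near 0 or small. Among those outside the lists, the largest falls included Slc25a33, a mitochondrial pyrimidine nucleotide carrier. It gave 154, 187 and 153 at ZT23 and 394, 653 and 1027 at ZT11, without overlap and with a difference of -1.87 ± 0.27 (adjusted p = 0.00383, limma). Slc10a6, a carrier of sulfated steroids, gave 42.7, 138 and 75.6 at ZT23 and 326, 493 and 165 at ZT11 (log2 -1.75 ± 0.33). Its wake sham 2 and sleep sham 3 values lay close together. Wake sham 2 was its highest night array and sleep sham 3 its lowest day array, each as in most genes called lower. Il17ra, the interleukin-17 receptor chain, was near the floor at night (1.79, 18.6 and 2.03 at ZT23 and 56.0, 71.7 and 33.5 at ZT11, log2 -1.61 ± 0.25). Rgcc, a regulator of the cell cycle in vessels, and the kinase Pim3 fell by 1.53 and 1.46.

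Among called genes with separate groups, the largest rise outside the clock was that of Adam19, a membrane protease needed for heart valve development. It gave 93.4, 78.0 and 112 at ZT23 and 30.1, 25.5 and 24.4 at ZT11, with every night array at least 2 times every day array (log2 1.37 ± 0.27, adjusted p = 0.0218, limma). Frmd5, a FERM domain protein of cell junctions, gave 490.1, 474 and 378 at ZT23 and 202, 158 and 216 at ZT11 (log2 1.16 ± 0.15, adjusted p = 0.00238, limma). Tm4sf1, a membrane protein of endothelial cells, gave 1174, 996 and 1615 at ZT23 and 643, 449 and 569 at ZT11, although another of its probe sets differed by 0.21. The remaining rises of this size were Blnk, a B cell linker, Olfml2b, Laptm4a, a lysosomal membrane protein, the cytokine signalling inhibitor Cish, the fast muscle light chain Myl1 and the ubiquitin ligase subunit Fbxw7, with log2 differences of 1.04, 1.04, 0.99, 0.95, 0.94 and 0.88. Of 19 cell cycle genes, cyclin A2 (Ccna2) rose by 0.59 and Wee1 fell, beside 0.42% and 1.1% of all genes. The groups were separate for 10 of the 19, of which 8 were higher and 2 lower at ZT23, beside 11.9% and 8.15% of all genes. An unadjusted p below 0.05 (limma) was found for 10, beside 13.4% of all genes. Mki67, a marker of cycling cells, read 33.3, 48.5 and 25.6 at ZT23 and 12.5, 15.1 and 14.3 at ZT11, with no overlap and no call (adjusted p = 0.217, limma).

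**Figure D5:**
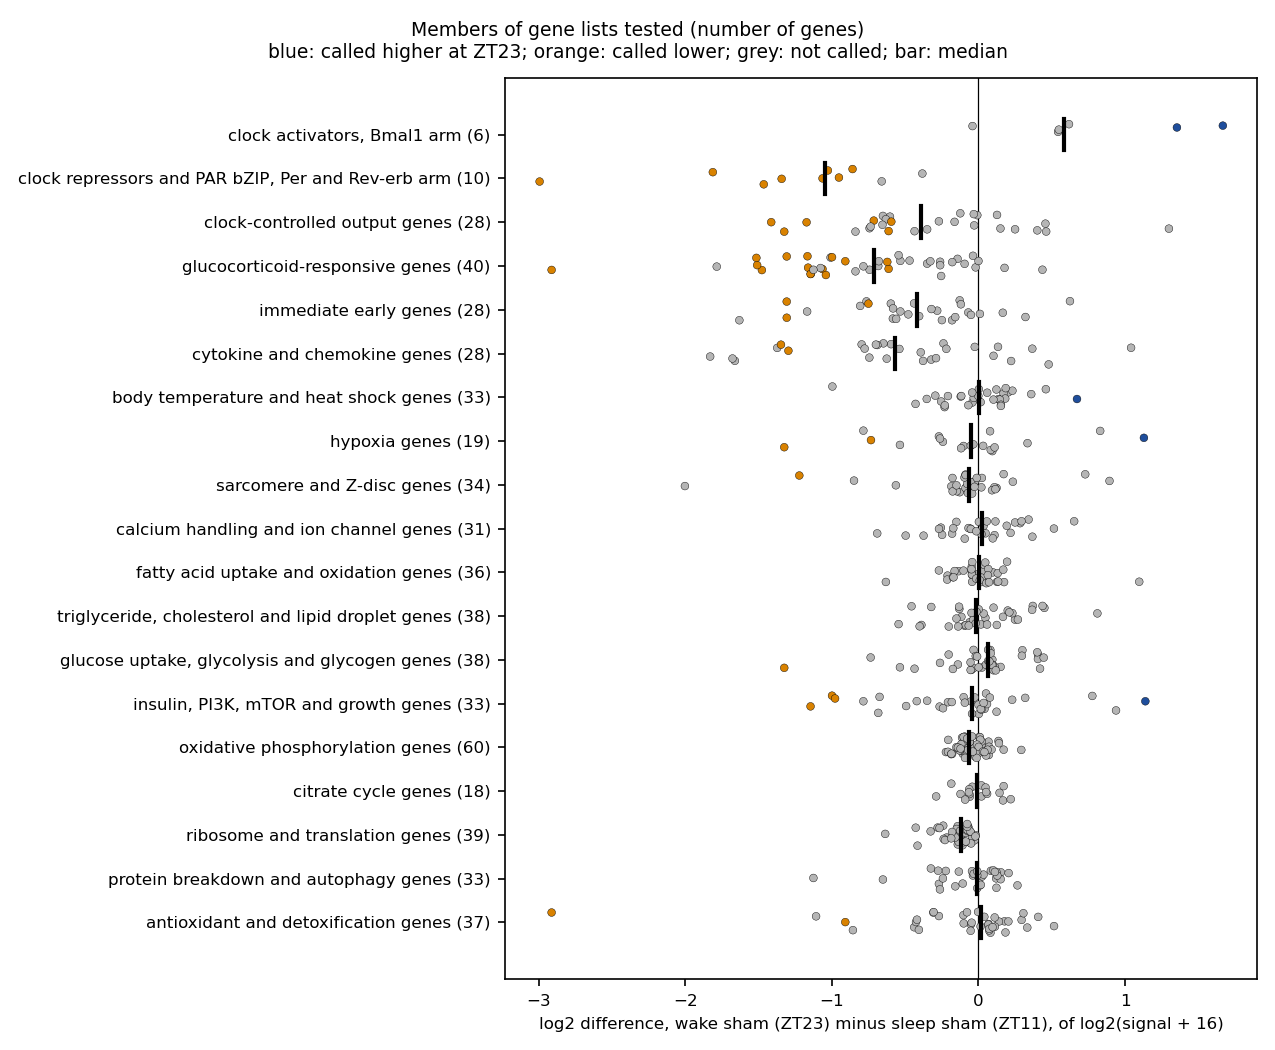
Each point is the log2 difference, ZT23 minus ZT11, of 1 tested gene in 19 of the lists, blue where called higher, orange where called lower and grey where not called, with a bar at the list's median. The bars of the Per and Rev-erb arm (-1.05) and of the glucocorticoid-responsive genes (-0.71) lie far to the left, and those of the fuel use, channel and sarcomere lists lie near 0.

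The infarcted hearts give the same time contrast in other mice. There 3 genes were higher at ZT23 (0.037%) and 3 lower (0.037%). Of the 123 sham genes, 80 had the same sign in infarcted hearts and 3 passed the same way: Dbp, Nr1d2 and Tcap. Since the 123 were chosen for their sham differences, smaller values elsewhere are a description. The difference of the time contrast between infarcted and sham hearts passed for 0 genes (limma, adjusted), with 852 (10.5%) at an unadjusted p below 0.05.

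The clock genes varied in how large their difference was in infarcted hearts. The median of the Per and Rev-erb arm was -1.05 in sham and -0.31 in infarcted hearts, and that of the Bmal1 arm 0.58 and 0.63. Dbp averaged 125 ± 56.6 at ZT23 and 467 ± 141 at ZT11 in infarcted hearts (SD, n = 3), a difference of -1.80 against -2.99 in sham hearts. Nr1d2 averaged 411 ± 111 at ZT23 and 1132 ± 12.8 at ZT11, a difference of -1.46 against -1.81, and Tcap 3187 ± 96.2 at ZT23 and 4835 ± 225 at ZT11, -0.60 against -1.22. Arntl averaged 94.9 ± 33.1 at ZT23 and 31.2 ± 4.23 at ZT11, with the same order of groups and a wider spread (log2 1.19). The contrasts in infarcted hearts were -0.06 for Per1, -0.07 for Per2, -0.24 for Tef and 0.11 for Hlf, against -1.06, -0.86, -0.95 and -0.66 in sham hearts. Cry1 passed there (log2 1.11) and not in sham hearts (0.55), and the difference between both contrasts had an adjusted p of 0.339 (limma).

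Of the 15 called glucocorticoid-responsive genes, 8 had means at or above their sham day mean at both times after infarction, 5 had both means below it and 2 had 1 mean below it. Mt2 averaged 6792 ± 540.1 at ZT23 and 7372 ± 401 at ZT11 in infarcted hearts (SD, n = 3), and its time contrast was -0.12 against -2.91 in sham hearts. The difference of 2.79 ± 0.45 had an adjusted p of 0.0946 (limma). Fkbp5 averaged 644 ± 159 at ZT23 and 729 ± 156 at ZT11, and Map3k6 254 ± 10.6 at ZT23 and 256 ± 40.6 at ZT11. Their contrasts of -0.19 and -0.00 stood against -1.48 and -1.51 in sham hearts, with adjusted p-values for the difference of 0.327 and 0.13 (limma). Foxo3 averaged 289 ± 4.27 at ZT23 and 297 ± 39.3 at ZT11, below its sham day mean of 475, and Per1 averaged 194 ± 17.7 at ZT23 and 203 ± 11.8 at ZT11, also below its sham day mean of 212. Tsc22d3 averaged 742 ± 145 at ZT23 and 791 ± 150.3 at ZT11, below its sham night mean of 825. The glucocorticoid list's median was -0.71 in sham and -0.05 in infarcted hearts. Of its 40 tested members the contrasts differed for 0 after adjustment (limma) and for 22 at an unadjusted p below 0.05, beside 10.5% of all genes. The list was given room after its sham differences were seen. The same sham arrays enter this comparison, so the 22 are a description only.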

How the data were processed

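RNA from each of 12 hearts was run on its own Affymetrix array. The authors deposited 1 linear intensity for each probe set, made with MAS5 per the submitters' processing notes. Its version and settings, and the batch and scan date of each array, are not named in the labels. No further scaling was applied.

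Of 22690 probe sets, 64 were controls. In the array's annotation 20380 carried 1 symbol, 691 several and 1555 no symbol. Genes were named from those with 1. Each of 12393 genes was represented by the probe set whose mean log2(signal + 16) was highest, and 8101 were tested, whose mean reached the 40th percentile of the non-control probe sets, a signal of 16.8. Other ways to compute that level were tried before any test was run, and this one was kept because its gene count matched an earlier account of these data. The plain mean of signals, tried as an alternative, tests 8111 genes. Folds are on the log2(signal + 16) scale, which understates the change of dim genes, and signals near the floor carry little order.

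limma 3.58.1 (R 4.3.3) was fitted to all 12 arrays with 1 mean per group, a variance trend and two-sided tests (8 residual degrees of freedom, 14.0 with the prior). Adjustment (Benjamini-Hochberg) was over 8101 genes within each contrast, and calls were made at an adjusted p below 0.05. The series describes the 3 hearts of a group as separate mice. The number of arrays limits the precision. No permutation test was used: 3 against 3 has a smallest two-sided exact p of 0.1. The script was tested on simulated data. Tables and figures used Python 3.11.15, numpy 2.4.6, pandas 2.3.3 and matplotlib 3.10.9. Through a mouse gene table (GRCm38.p6) 12369 of the 12393 gene identifiers matched.

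The comparison, the 38 gene lists and the rule for named genes were chosen with earlier results of these data known. The rule takes the 14 largest rises and 14 largest falls among called genes with separate groups, up to 4 called members of each list described and a panel of genes chosen by hand, of which 50 were tested. Lists are described by counts and medians, with no set test, and the 3 lists of the clock arms and the glucocorticoid-responsive genes were given most room after the counts of all 38 were seen. Promoter motifs were first looked at with more patterns in a set of hand-picked genes, and 5 kinds were then counted in all genes, the palindromic glucocorticoid element by its standard letters. The D-box was narrowed to 1 spelling after both spellings had been counted. The printed windows were picked for holding a match to 1 of 3 clock motifs. Alternatives were a pseudocount of 1 or 64, a filter at the 60th percentile or none, quantile normalization, median centring, the average over each gene's probe sets, all probe sets one by one, no variance trend, robust variances, array weights, the sham arrays alone, a replicate block, each sham array left out, an adjusted p below 0.01 and a log2 change of at least 1. The beta-actin covariate, the plain mean and the list counts were added after seeing the data.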

Additional observations from a re-analysis of the deposited data

How the results depend on the processing

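No named gene reversed its direction where it had been called. The main counts were 34 genes higher and 89 lower at ZT23. Counts moved by over 1.5 times with no level filter (20 higher, 55 lower), the average over each gene's probe sets (22 and 48), array weights (141 and 230), only the 6 sham arrays in the fit (45 lower), the beta-actin covariate (10 and 31), an adjusted p below 0.01 (5 and 28) and a log2 change of at least 1 (10 and 44). Leaving out each sham array gave 5 to 53 higher and 25 to 174 lower. Median centring gave 29 and 98, all probe sets one by one 40 and 117, and the plain mean of signals the same 123 genes. In the Bmal1 arm, 2 genes higher became 1 with the 60th percentile filter and 4 with array weights (2 to 3 with an array left out). In the Per and Rev-erb arm, 8 lower became 5 with the average over each gene's probe sets and 5 to 7 with an array left out. Of the glucocorticoid-responsive genes, 15 lower became 8 with only the 6 sham arrays, 4 with the covariate and 3 to 20 with an array left out. The cause was not tested.

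Of 55 called genes named, 16 kept their call in every fit that tested them: Arntl, Dbp, Frmd5, Il17ra, Irs1, Maff, Map3k6, Mt2, Nfil3, Nr1d2, Per1, Per3, Slc25a33, Tcap, Tef and Tspan4. Arntl, Il17ra and Per3 lay below the 60th percentile filter, so that fit did not test them, and Per3 was not tested with the average over each gene's probe sets either. Of the others, 39 lost it with some array left out, 30 with another setting and 33 with the covariate. Of 33 named genes without a call, 11 gained one in some fit. Replicate numbers are shared by the groups, but deviations of same-numbered sham arrays correlated at 0.05, 0.25 and 0.13, so the numbers were not read as pairs. With the replicate block 28 genes were higher and 71 lower.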

Other observations

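Some further genes, chosen after their values were seen, separated the sham groups or single hearts. Timp3, an inhibitor of matrix proteases, gave 501, 610.2 and 598 at ZT23 and 1452, 1628 and 1345 at ZT11. Every day array lay above every night array, and the difference of -1.35 ± 0.11 had the smallest adjusted p after Tcap (2.07e-05, limma). Noct, a clock-driven deadenylase-like enzyme also called nocturnin, gave 328, 299 and 343 at ZT23 and 829.7, 755 and 522 at ZT11 and was lower at ZT23 (log2 -1.06 ± 0.16, adjusted p = 0.00441, limma). Cited4, a transcriptional coregulator, read 149, 44.2 and 128 at ZT23 and 13.03, 23.4 and 44.4 at ZT11 and is the called gene whose groups overlapped, wake sham 2 lying just below sleep sham 3.

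Tfrc, the transferrin receptor, read 1035, 164 and 1049 at ZT23 and 164, 152 and 431 at ZT11. Wake sham 1 and 3 were high, wake sham 2 was at the level of sleep sham 1 and 2, and the difference of 1.30 ± 0.67 did not pass (adjusted p = 0.421, limma). The first principal component of the 6 sham arrays held 48.2% of their variance and placed them at 15.97, 4.34 and 15.7 for wake sham 1, 2 and 3 and at -13.9, -21.3 and -0.77 for sleep sham 1, 2 and 3. Of 27 interferon-stimulated genes 0 passed (limma, 0 at an unadjusted p below 0.05), with a median difference of -0.15, and of 12 complement and coagulation genes 0 passed (3 at an unadjusted p below 0.05).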
